A study of Drosophila melanogaster with 2 samples.

Results

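The regions described here are the strongest 10% of 3930 peaks of the her-GFP protein. All 3930 had passed a threshold on the irreproducible discovery rate (IDR), a filter on how consistently peaks rank between compared lists. Which lists were compared for it was not checked here. The members were chosen by the deposited pooled signal, from the highest value down, and 277 of them lay in promoters and 116 outside. The data come from chromatin immunoprecipitation followed by sequencing on whole embryos of *Drosophila melanogaster*. All samples carried a transgene that stably expressed *her* with GFP at its C-terminus, inserted as a construct that targets *her*. The 2 biological replicates formed 1 group of embryos, males and females pooled, aged 0 to 24 h. Sonicated chromatin of 200 to 800 bp was recovered with anti-GFP antibody. No untagged line or other genotype was analysed here, so the peaks have no control group beside them. The thresholded peaks below the members, 2215 in promoters and 1322 outside, serve as the comparison throughout and are called the other thresholded peaks. No test of a difference was run, because regions of 1 experiment are not replicates of a condition. The exact 95% intervals (Clopper-Pearson) given with shares cover counting error only, and read depth was not given in the sources used here.

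*her* (hermaphrodite) encodes a zinc-finger protein with maternal and zygotic roles in sex determination. Zinc-finger proteins of this kind read short DNA sequences in the major groove, and those that bind next to the transcription start site (TSS) meet the general transcription machinery there. Fly promoters carry recurrent short elements, among them the TATA box, the initiator, the DNA replication-related element (DRE) and GAGA repeats. A chromatin immunoprecipitation peak is broader than the contact itself, and its summit is the position with the highest signal. In whole embryos of mixed age, a difference in the number of cells bound and a difference in binding per cell cannot be told apart.

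The strongest members held a pair of 4-letter sequences at a fixed spacing. The pair is CTCA followed, after a gap of 4 bases, by TGCG, or on the other strand CGCA followed after 4 bases by TGAG. The 11 windows below belong to the strongest members, outside 1 autosome arm that is not printed, whose summit lay up to 500 bp upstream of a TSS. They reach up to 50 bp to each side of the summit and leave out annotated UTRs. *Jasper*, the sixth by signal, met the same rule but its summit lay inside an annotated UTR, so it is not shown. Sequences are RefSeq, dm6 (Release 6), read 5′ to 3′ on the strand of the gene, and capitals mark the pair. They show that 8 of the 11 windows held it, in either orientation, and that *Pka-C1* held it at 2 places.
fwd, chr3L:319885-319975, minus strand: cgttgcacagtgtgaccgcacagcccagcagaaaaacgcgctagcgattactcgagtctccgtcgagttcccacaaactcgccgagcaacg
Pka-C1, chr2L:9699298-9699393, minus strand: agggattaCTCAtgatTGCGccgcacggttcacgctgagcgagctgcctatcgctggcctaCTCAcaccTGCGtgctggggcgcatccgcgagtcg
Ubc6, chr3R:4952685-4952785, minus strand: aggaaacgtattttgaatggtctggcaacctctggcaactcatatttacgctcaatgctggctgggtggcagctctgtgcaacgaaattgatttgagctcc
Cpr, chr2L:6343610-6343698, plus strand: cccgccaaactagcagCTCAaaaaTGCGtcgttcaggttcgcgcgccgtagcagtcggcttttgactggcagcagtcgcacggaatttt
CG10874, chr2L:2192387-2192484, minus strand: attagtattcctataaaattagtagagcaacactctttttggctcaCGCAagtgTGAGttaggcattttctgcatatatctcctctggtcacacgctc
Snx27, chrX:5738059-5738159, minus strand: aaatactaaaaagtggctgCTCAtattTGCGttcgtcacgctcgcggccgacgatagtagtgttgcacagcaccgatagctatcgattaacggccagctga
Rbfox1, chr3L:10515887-10515987, plus strand: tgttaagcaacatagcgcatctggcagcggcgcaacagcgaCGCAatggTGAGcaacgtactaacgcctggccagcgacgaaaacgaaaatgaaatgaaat
MED10, chr3L:16232039-16232083, plus strand: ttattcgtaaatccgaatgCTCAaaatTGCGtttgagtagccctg
Ppt2, chr2L:11280199-11280297, plus strand: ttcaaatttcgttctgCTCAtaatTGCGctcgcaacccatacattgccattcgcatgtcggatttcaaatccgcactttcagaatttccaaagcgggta
gpp, chr3R:6406727-6406827, plus strand: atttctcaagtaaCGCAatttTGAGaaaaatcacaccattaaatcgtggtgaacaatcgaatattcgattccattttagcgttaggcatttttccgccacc
flfl, chr3R:13683836-13683920, plus strand: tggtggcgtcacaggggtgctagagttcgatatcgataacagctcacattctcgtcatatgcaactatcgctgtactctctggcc
The windows of *fwd*, *Ubc6* and *flfl* held no such pair.

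The sites of 12 further members on the same arms, all among the strongest 50, are shown with 6 bases on each side, turned so that CTCA comes first. They are given to show which letters recur between and around the 2 parts of the pair.
ush, chr2L:490301-490324, plus strand: atttttCTCAtaatTGCGttgtgg
Hr96, chr3R:25025191-25025214, plus strand: cgatggCTCAcaatTGCGtttgcc
mge, chr3L:3909617-3909640, minus strand: agatttCTCAtgaaTGCGccgcga
msn, chr3L:2586597-2586620, plus strand: accgttCTCAtttcTGCGcacata
dj-1beta, chr3R:30807089-30807112, plus strand: ggaaaaCTCAaagcTGCGttccag
CG13398, chr2L:8415239-8415262, minus strand: ccgttgCTCAcaatTGCGttctgt
Glyat, chr2L:8010838-8010861, plus strand: tttataCTCAtttcTGCGttctga
Cep97, chr2L:3867653-3867676, minus strand: tgaaaaCTCAagacTGCGccgcta
Mondo, chr2L:21310105-21310128, minus strand: attatgCTCAttctTGCGtttttc
CG13698, chr3L:18106216-18106239, minus strand: gcgtttCTCAcaatTGCGctgcgc
colt, chr2L:2770063-2770086, minus strand: aatgctCTCAcaccTGCGtcgcta
Pmm2, chr3L:12534542-12534565, plus strand: ggatttCTCAccacTGCGttgccg
Across the 35 sites in members, the 4 bases of the gap were not free of preference. The second base of the gap was A at 24 of 35 sites and the last was T at 18 and C at 11. The base after TGCG was T at 23 of 35 sites and C at 10, and the base after that was T at 19. Upstream of CTCA, the second base away was T at 22 of 35 sites.

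Within 50 bp of the summit the pair was present in 34 members (8.65%, exact 95% interval 6.07 to 11.9), against 12 of the other thresholded peaks (0.339%, interval 0.175 to 0.592). It was concentrated at the top of the ranking. Ranks 1 to 25 held it in 14 of 25 windows (56%), ranks 26 to 50 in 10 of 25 (40%) and ranks 51 to 100 in 5 of 50 (10%, interval 3.33 to 21.8). The 100 members ranked after those, down to rank 200, held it in 2 windows and the last 193 members in 3 (1.55%). The members' flanks, windows of equal width with their centre 350 bp to the left of the summit, held it in 0 cases, with an upper limit of the exact interval of 0.934% (3 counts of their number would be 0.763%). Among 19253 windows upstream of protein-coding TSSs the share was 0.244%, and among 25123 regions of the pooled relaxed list that overlap no thresholded peak it was 0.251%. The letters were picked after the values of the 50 strongest members had been seen, so the share in those 50 is a description only. It had the widest difference in share between ranks 1 to 50 and the other thresholded peaks among 50130 combinations of 2 stretches of 4 letters, 0 to 12 bases apart, that occurred in the 50 windows. The members below rank 50 did not enter that choice, and 10 of them held the pair (2.92%, interval 1.41 to 5.30).

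**Figure D1:**
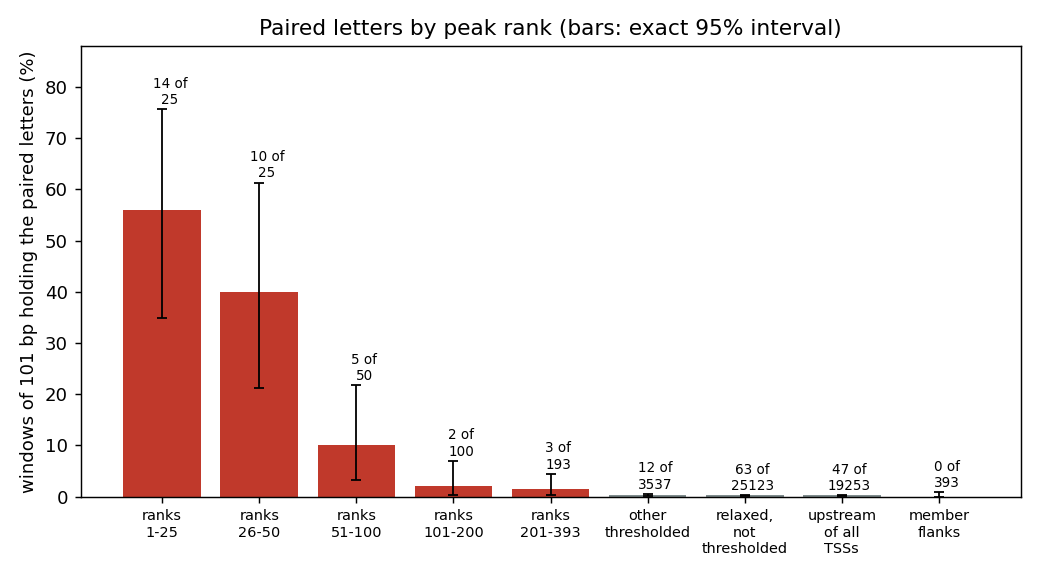
Share of windows reaching 50 bp to each side of the summit (y axis, percent) that hold the paired letters, for members by rank (red) and for other thresholded peaks, relaxed regions, windows upstream of all protein-coding TSSs and member flanks (grey). Error bars are exact 95% intervals. The share is 56% in ranks 1 to 25 and 0.339% in the other thresholded peaks.

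The gap was chosen together with the letters in the 50 strongest members, so its count there is fixed by that choice. In those 50, 24 held both parts at a gap of 4 bases and 0 or 1 at each of the other 12 gaps from 0 to 12 bases. In the members below rank 50, which did not enter the choice, 10 held both parts at a gap of 4 bases and at most 2 at any other gap. The other thresholded peaks held the 2 parts at every gap, in 2 to 14 windows each, so that a gap of 4 bases did not stand out in them. Many of the 50 strongest members without the full pair came close to it. Of those 26 windows, 11 held it with 1 of the 8 letters changed (42.3%, interval 23.4 to 63.1), against 187 of 3525 windows of other thresholded peaks without the pair (5.30%). Both sets entered the choice of the letters, so this difference is a description only. The members below rank 50 were not used to choose the letters, and 24 of their 333 windows without the pair held such a sequence (7.21%, interval 4.67 to 10.5). Ranks 51 to 100 held such a sequence in 11 of 45 windows (24.4%, interval 12.9 to 39.5). Members down to rank 200 held it in 2 of 98 further windows and the last 193 members in 11 of 190 (5.79%).

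**Figure D2:**
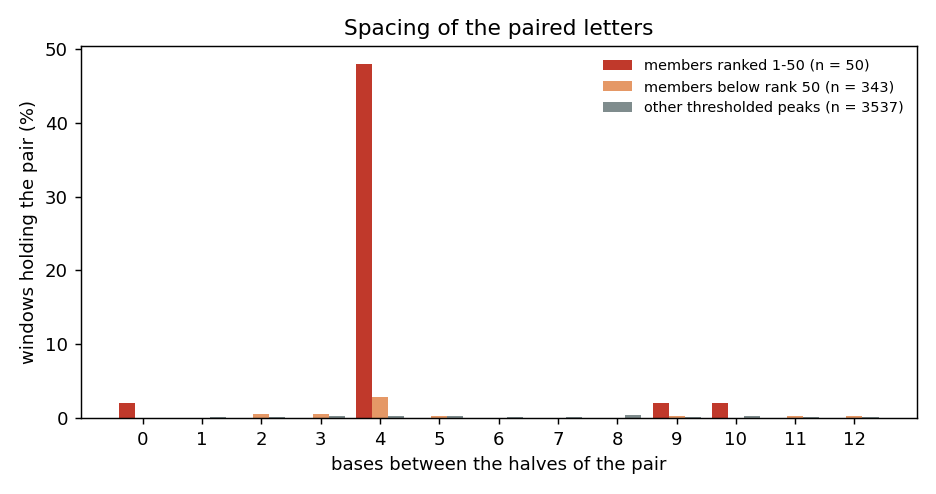
Share of windows (y axis, percent) in which the 2 parts of the pair occur with 0 to 12 bases between them (x axis), for members ranked 1 to 50, members below rank 50 and other thresholded peaks. In members ranked 1 to 50, where the gap was chosen, the gap of 4 bases gives 48.0% and each other gap gives 0% or 2.0%; in members below rank 50 it gives 2.92% and each other gap at most 0.583%.

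The pair sat close to the summit. Its middle lay a median of 14 bp from the summit and at most 41 bp away, within the 50 bp searched, and 27 of 35 sites were within 25 bp. The orientation was mixed, with CTCA first on the strand of the nearest gene at 22 sites and on the opposite strand at 13. Over the 6 arms analysed the pair occurred 2401 times, and 37 of these places (1.54%) had a member summit within 100 bp. The shares by position rest mostly on the 50 strongest members, in which the pair was found. Of 56 places up to 100 bp upstream of the nearest TSS, 23 had a member summit within 100 bp (41.1%, interval 28.1 to 55.0), 19 of them from the 50 strongest. Of 96 places further upstream, to 500 bp, 7 did (7.29%), 4 of them from the 50 strongest. Of 183 places up to 500 bp downstream, 3 did (1.64%), 1 of them from the 50 strongest. Of 2066 places beyond 500 bp of a TSS, 4 did (0.194%, interval 0.0528 to 0.495), 1 of them from the 50 strongest. Any thresholded summit lay within 100 bp of 28 of the 56 nearest upstream places (50%).

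Of the 34 members with the pair, 31 had their summit upstream of the nearest TSS and 30 lay in a promoter, taken as within 500 bp of a TSS. Their median pooled signal was 1987, against 460 in the 359 members without it, which restates their place in the ranking. The 5 that fell outside the top 100 had signals from 327 to 742 and lay nearest to CG4364, lncRNA:CR42794, *scyl*, *salm* and *ix*. These 5 are named after their values were seen, apart from *salm* and *ix*. *ix* (intersex) encodes a cofactor of the Doublesex protein, the last switch of somatic sex determination. Its peak ranked 390 with a signal of 327, and its summit lay 20 bp downstream of the TSS.

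The signal that chose the members fell steeply with rank. It was 9479 at *ush*, 1433 at rank 50, 882 at rank 100 and 471 at rank 200. At the limit it was 326.33 for the last member, at *papi*, and 326.03 for the first peak left out, at *Stt3A*. The members held 39.8% of the summed signal of all thresholded peaks, and the 50 strongest alone held 18.0%. All of them had a summit within 200 bp in each replicate's own list. When each replicate's list was cut at the same number of regions, 366 members were in that of replicate 1, 363 in that of replicate 2 and 336 in both. The lowest place was 852 in replicate 1 and 987 in replicate 2. Pooled signal was close to the sum of the replicate values, with a median ratio of 0.997 (range 0.842 to 1.17). The replicates therefore entered the value that chose the members, and their agreement here is a description. Across members Spearman's rho between the replicates was 0.881 (over all members, which share the pooling and the same further file).

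**Figure D3:**
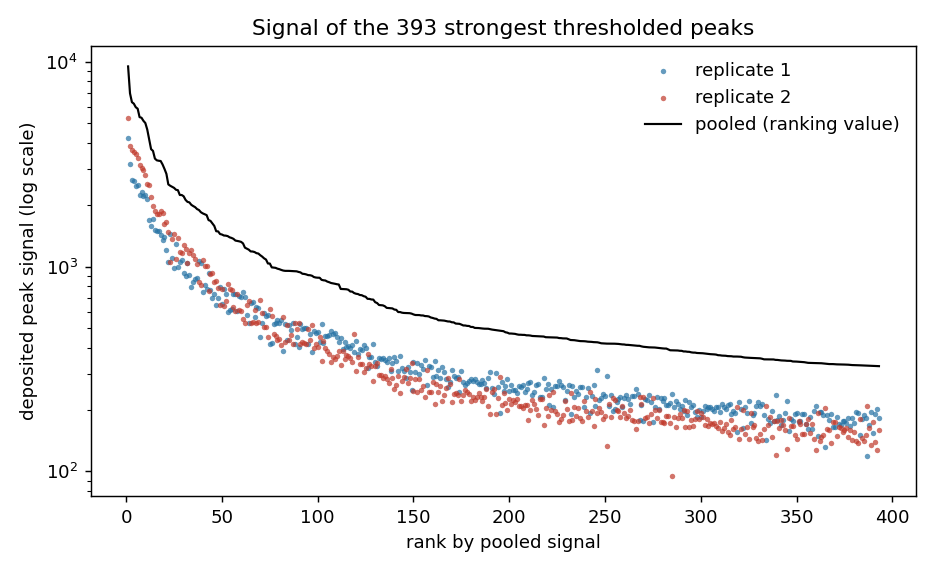
Deposited peak signal (y axis, log scale) against rank by pooled signal (x axis) for the members, with the pooled value as a line and each replicate as points. Replicate 2 lies above replicate 1 in 44 of the 50 strongest members, while replicate 1 lies above replicate 2 in most members further down.

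The balance of the replicates differed by rank. Both replicates entered the pooled signal, so a difference by rank is not independent of the ranking and is a description. In ranks 1 to 50 the signal was higher in replicate 2 at 44 of 50 members, with a median log2 ratio of replicate 1 to replicate 2 of -0.33 (SD 0.257 over regions). Below rank 50 it was higher in replicate 1 at 276 members and in replicate 2 at 67, with a median log2 ratio of 0.24 (SD 0.288). The other thresholded peaks had a median of 0.23 over the 3521 found in both lists. In ranks 1 to 50 most members leaned to replicate 2 both with and without the pair, but all 6 exceptions were 2 or more letters away from it. This lean was present at all 24 members with the pair (median -0.41) and at 20 of the 26 without it (median -0.26). Below rank 50, 8 of the 10 members with the pair were higher in replicate 2. Those 10 had a median log2 ratio of -0.21, against 0.24 in the 333 members below rank 50 without the pair, of which 59 were higher in replicate 2. Of the members below rank 50 with 1 letter of the pair changed, 14 of 24 were higher in replicate 2 (median -0.16), against 45 of the 309 further from the pair (median 0.25). In ranks 1 to 50 the counts were 11 of 11 with 1 letter changed and 9 of 15 further from the pair. Over all members, 19 of the 32 with ATCGAT, a promoter element described later, and no pair were also higher in replicate 2 (median -0.13). That count includes ranks 1 to 50, where most members leaned to replicate 2. Below the members, few peaks held the pair and the division was less clear. The 12 other thresholded peaks with the pair had a median log2 ratio of 0.03 and divided into 6 higher in each replicate. Of those without the pair, 1014 of 3509 were higher in replicate 2 (median 0.23). With 1 letter changed, 52 of 186 were (median 0.27). The 12 peaks with the pair are too few to settle whether the division was present there. The relation between the scales of the replicates is not stated, so only differences between sets of members can be read from these ratios, not the absolute balance.

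**Figure D4:**
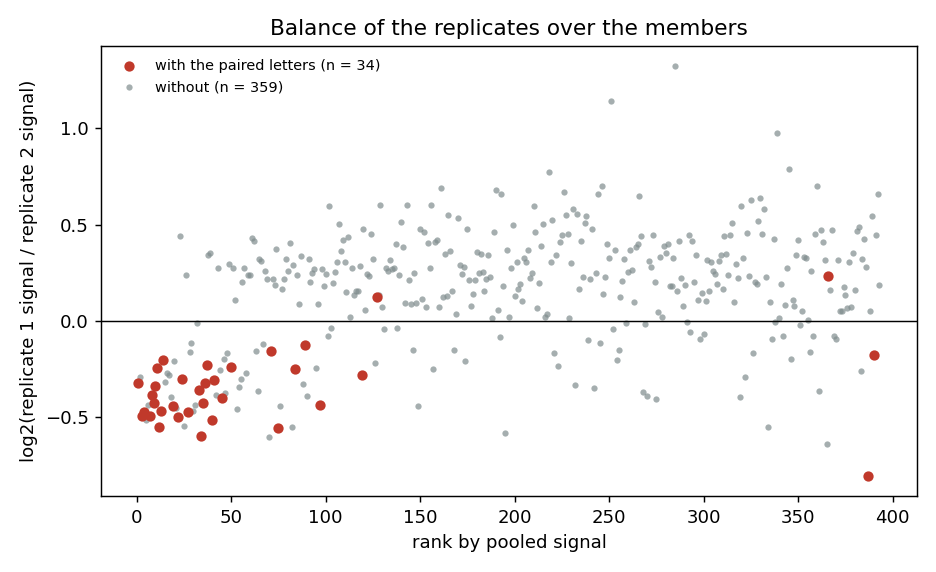
Log2 ratio of replicate 1 to replicate 2 signal (y axis) against rank by pooled signal (x axis) for the 34 members with the paired letters (red) and the 359 without (grey). Of the 34 with the pair, 32 lie below 0, 24 of them in ranks 1 to 50. Of the 359 without it, 79 do, 20 of them in ranks 1 to 50.

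The values of single members show both directions. *ush*, whose protein binds GATA factors as a cofactor and whose summit lay in an annotated 5′ UTR beside the pair, had 4225 in replicate 1 and 5279 in replicate 2. *Pka-C1*, which encodes a catalytic subunit of the cyclic AMP dependent kinase, had 2617 and 3635. *MED10*, a subunit of the Mediator complex that links activators to RNA polymerase II, had 1695 and 2487. In these 3 members with the pair, replicate 2 was higher. *fwd*, which encodes a phosphatidylinositol 4-kinase and held no pair, had 3163 in replicate 1 and 3866 in replicate 2, the direction of most members without the pair in the top 50. *cbt*, which encodes a transcription factor of the Krüppel-like family, was the nearest gene of a summit in an intron of *ush* with 1433 in replicate 1 and 1057 in replicate 2. *Lk6*, a protein kinase that acts on the translation factor eIF4E, had an intronic summit with 1036 and 811. *Ugalt*, a nucleotide sugar transporter, had a promoter summit with 1286 and 1089. *cbt*, *Lk6* and *Ugalt* had no pair and were 3 of the 6 exceptions in the top 50 that were higher in replicate 1. The extremes over all members were *Drat*, with 238 in replicate 1 and 95.2 in replicate 2 (log2 ratio 1.32), and *salm*, a zinc-finger patterning gene, with 119 and 208 (log2 ratio -0.80). Of all members, 2 differed by more than 2-fold between replicates, *Drat* and *RpL13A*.

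Members lay within 500 bp of a TSS more often than the other thresholded peaks did, and promoter members more often had their summit upstream. Promoters held 277 members (70.5%, interval 65.7 to 75), against 2215 others (62.6%, interval 61.0 to 64.2). With a narrower window of 200 bp the excess was not seen over all members, at 53.9% (interval 48.9 to 59.0), against 52.1% of the others (interval 50.5 to 53.8). Both shares fell with rank. Promoters held 45 of the 50 strongest (90%, interval 78.2 to 96.7). They held 124 of the last 193 members (64.2%, interval 57.0 to 71.0), near the share of the others. Within 200 bp of a TSS lay 42 of the 50 strongest (84%, interval 70.9 to 92.8). Of the last 193 members, 87 did (45.1%, interval 37.9 to 52.4). Introns held 77 members (19.6%), against 937 others (26.5%), and intergenic sequence held 31 (7.89%), against 302 (8.54%). The remaining 8 members were in 5′ UTRs (3), 3′ UTRs (2), coding exons (2) and 1 other exon. Of the promoter summits, 225 of 277 members were upstream of the TSS (81.2%, interval 76.1 to 85.7), against 1452 of 2215 others (65.6%, interval 63.5 to 67.5). The median position was 81 bp upstream for members and 31 bp upstream for the others. TSSs on both strands within 500 bp were about as common in members (85 of 277 promoter summits, 30.7%) as in the others (700 of 2215, 31.6%). Members more than 5 kb from any TSS numbered 17 (4.33%), against 337 others (9.53%).

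The position changed within the members. The 45 promoter summits in ranks 1 to 50 had a median of 39 bp upstream of the TSS, and 29 of them lay 25 to 100 bp upstream (64.4%, interval 48.8 to 78.1). In the 100 members that end at rank 200 the median was 119 bp upstream, and 15 of 69 lay 25 to 100 bp upstream (21.7%, interval 12.7 to 33.3). The sequence within 50 bp of the summit changed too. Its median GC content was 46.5% in ranks 1 to 50, 34.7% in the 100 members that end at rank 200 and 38.6% in the last 193 members. Over all members it was 37.6%, against 41.6% in the other thresholded peaks and 43.6% in the members' own flanks. Promoter members had a median of 39.6%, against 44.6% in the other promoter peaks, so the lower value was also present among promoters alone.

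Of the known promoter elements, the full DRE, its core and the BEAF-32 core CGATA differed between the 50 strongest and the lower members. ATCGAT, the core of the DRE, which recruits DREF at housekeeping promoters, was present in 14 of the 50 strongest members (28.0%, interval 16.2 to 42.5) and in 25 of those below rank 50 (7.29%), against 8.65% of the other thresholded peaks. It occurred in 12.8% of windows upstream of protein-coding TSSs. The full DRE was in 8 of the 50 strongest (16%, interval 7.17 to 29.1). Below rank 50 it was in 9 members (2.62%, interval 1.21 to 4.92), against 3.56% of the others and 5.14% of windows upstream of TSSs. CGATA, whose letters also occur in the full DRE (TATCGATA), was present in 19 of the 50 strongest (38%, interval 24.7 to 52.8). Below rank 50 it was in 52 members (15.2%, interval 11.5 to 19.4), against 21.5% of the others and 25.9% of windows upstream of TSSs. TATAAA, the core of the TATA box, was present in 5 of the 50 strongest (10%, interval 3.33 to 21.8) and in 53 members below rank 50 (15.5%, interval 11.8 to 19.7), against 9.81% of the others and 18.3% of windows upstream of TSSs. For the TATA box these intervals of the 50 strongest and the lower members overlapped. GAGAG, read by the GAGA factor, was less common in members, in 35 of them (8.91%, interval 6.28 to 12.2), against 581 others (16.4%). In the members' flanks the share with GAGAG was 16.3%. Elements were searched on both strands, and a match describes the letters only. ACAATGT, the core of the Doublesex site, was in 7 members (1.78%), against 1.44% of the others. Among all 6-letter sequences, the widest differences between members and others were mostly in sequences of A and T. They were led by AAAATA, in 31.6% of members against 21.2% of the others and 21.9% of the members' flanks. CTCAAA was also among them (13.0% against 6.59%). These sequences were picked after their values were seen. AAAATA was in 33.8% of members below rank 50 and in 16% of the 50 strongest.

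On the chromosomes, X held 72 members (18.3%, interval 14.6 to 22.5), against 601 other thresholded peaks (17.0%), and makes up 17.6% of the length of the arms analysed. Arm 2L held 94 members (23.9%, interval 19.8 to 28.5), against 19.1% of the others and 17.6% of the length. Chromosome 4 held 2 members. They were *Pur-alpha*, a nucleic acid binding protein, at rank 20 with a signal of 2995, and the kinase gene *Dyrk3* at rank 70 with 1135. Members were seldom close together, with 12 neighbouring pairs within 2 kb and 2 within 500 bp. The exceptions were a few loci. *ush* had 4 member summits in or near it, including 2 whose nearest TSS was that of *cbt*. *Raf*, a kinase of the Ras pathway, *RasGAP1*, which lowers Ras activity, *Ptpmeg2*, a tyrosine phosphatase, and the kinase gene *Tlk* had 3 each. At *RasGAP1*, 2 of the summits shared 1 interval, 62 and 286 bp downstream of the TSS.

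Of 13945 protein-coding genes, 425 (3.05%) had a TSS within 1 kb of a member summit. Some of the 40 strongest members lay nearest to genes of chromatin proteins, for which no list of histone-modifying enzymes was counted. *Ubc6*, the conjugating enzyme for ubiquitin on histone H2B, ranked 5 with 2483 in replicate 1 and 3542 in replicate 2. *Bre1*, the ligase for the same mark, ranked 31 with 903 and 1221. *gpp*, the methyltransferase for a lysine in the core of histone H3 (Dot1 in yeast), ranked 14 with 1714 and 1972. *Jasper*, which encodes a chromatin protein with a PWWP domain, ranked 6, and *E(Pc)*, a subunit of the Tip60 acetyltransferase complex, ranked 19. These genes were picked from the 40 strongest members after their values were seen and are no group. The Polycomb and trithorax lists hold none of these genes. Of 18 Polycomb group genes 1 had a member summit (*ph-p*), and of 25 trithorax group and Brahma genes 2 did, *osa* at rank 84 and *Trl* at rank 277. Of 41 Mediator and TFIID genes 4 did, all of them Mediator subunits (*MED10*, *MED30*, *MED15* and *MED4*).

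Genes of membrane traffic and signalling were also among the 40 strongest. Those named here from the 40 strongest were picked after their values were seen and are no group. *Hrs*, which sorts ubiquitylated receptors at endosomes, ranked 18, the sorting nexin gene *Snx27* ranked 9 and *lap*, a clathrin assembly protein, ranked 25. As a list, membrane trafficking had 2 of 85 genes with a member summit (2.35%), near the background of 3.05%. They were *Snx27* and *Vps33B*, and the list does not hold *Hrs* or *lap*. *fwd*, a phosphatidylinositol 4-kinase, ranked 2, and *Pi4KIIIalpha*, which makes the same lipid, ranked 53. They were 2 of 3 among 24 phosphoinositide enzymes. *msn*, a kinase of the JNK pathway, ranked 27, and its promoter peak was also the one within 1 kb of *RpL8*. EGFR and Ras genes numbered 3 of 24 (*RasGAP1*, *sty* and *Raf*), and Wingless genes 3 of 24 (*gish*, *sgg* and *slmb*). Metabolic regulators included *Hr96*, a nuclear receptor of lipid and xenobiotic response, at rank 22, and *Mondo*, a sugar-responsive transcription factor, at rank 40. Both had the pair.

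Ribosomal protein genes were frequent lower in the ranking. Of 86 cytoplasmic ribosomal protein genes, 19 had a member summit within 1 kb of a TSS (22.1%, interval 13.9 to 32.3). Apart from *RpL8*, which shared the peak of *msn*, the 18 ranked between 109 and 352, from *RpL7* with a signal of 824 to *RpS28b* with 343. None of the 18 held the pair within 50 bp of the summit. Taken by nearest TSS the set was not the same, because the summit by *RpS20* lay nearest to the TSS of another gene. The 18 members whose nearest TSS belonged to a ribosomal protein gene lay a median of 37 bp upstream of it, with a median GC content of 51.5%. At 15 of them replicate 1 was higher, with a median log2 ratio of 0.36. They lay close to the TSS like the 50 strongest but mostly leaned to replicate 1. This lean was not particular to them, since replicate 1 was higher at 276 of all 343 members below rank 50 (median 0.24). Below rank 50, 46 promoter members without the pair lay 25 to 100 bp upstream. Replicate 1 was higher at 31 of those 46 and replicate 2 at 15 (median 0.14). Of 73 mitochondrial ribosomal protein genes 5 had a member summit (6.85%), and of 55 translation factors 4 did.

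Several lists had no member summit at all. Among them were 48 proteasome genes, 33 splicing genes, 24 ecdysone response genes, 20 maternal, gap and pair-rule genes, 17 germline and piRNA genes, 123 cuticle protein genes, 186 chemosensory receptor genes, 11 genes of the Enhancer of split complex, 8 Hox genes and 9 dosage compensation genes. A count of 0 has little weight beside 3.05% in most of these lists. The upper limit of the interval was below 3.05% only for cuticle proteins (2.95%) and chemosensory receptors (1.96%). It was 7.40% for proteasome genes and 10.6% for splicing genes, of which 12 and 14 had a thresholded peak of any rank. Of 24 genes of sex determination and yolk, 2 had one, *ix* and the corepressor gene *gro*, at ranks 390 and 209. *her* itself had a thresholded peak at rank 2686, far below the members. Over all 18164 annotated genes, RNA genes included, 2.61% had a member summit. Of 295 nuclear tRNA genes 2 had one and of 260 microRNA genes 2 did. Of 306 snRNA and snoRNA genes 12 did (3.92%), and 9 of these 12 lay by a summit within 1 kb of a TSS of a ribosomal protein gene.

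**Figure D5:**
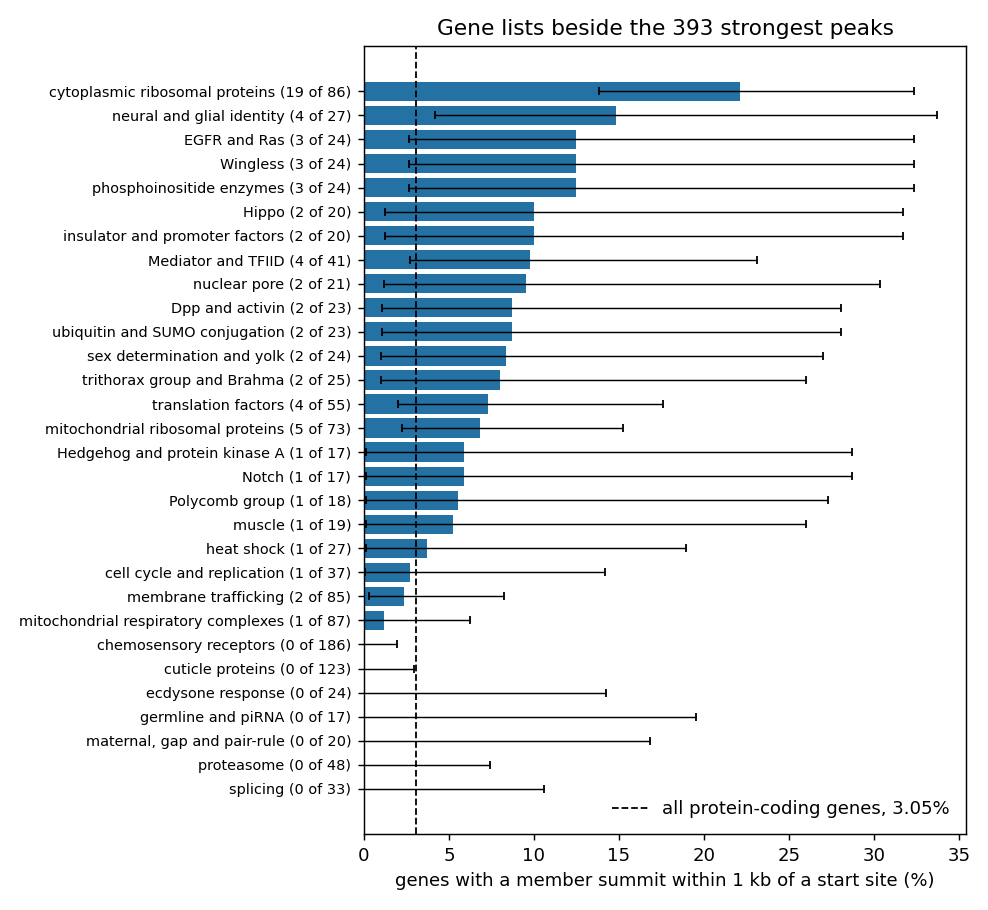
Share of each list's genes (x axis, percent) with a member summit within 1 kb of a TSS, for protein-coding lists of 15 or more genes, with counts in the labels and exact 95% intervals. The dashed line is the 3.05% of all protein-coding genes; cytoplasmic ribosomal proteins stand at 22.1%.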

How the data were processed

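Regions were taken from the deposited dm6 lists: 3930 thresholded peaks, and 30000 relaxed regions for each of 2 replicates and for their pool. Their deposited signal was computed by the authors, and its scale is not stated. The deposited −log10 q-value was 4.13 for all thresholded peaks and could not rank them. Per the deposited notes, lists were made from alignments and a further file, the same for both replicates, and the labels name a possible control experiment. Aligner and peak caller were not given in the sources used here. Lists on dm3 were not analysed here. Read depth is unknown.

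Peaks were sorted by pooled signal and the first 393 of 3930 taken, which left 3537. Summits were placed by Ensembl release 115 in a single class, tried in the order promoter (500 bp), UTR, exon, intron, intergenic. Replicate regions were matched within 200 bp. Sequence was read from the RefSeq Release 6 genome, which is dm6, within 50 bp of the summit. Of the listed gene symbols, 9 matched no single gene and were left out. Python 3.11.15, pandas 2.3.3 and scipy 1.17.1 were used, and the searches were tested on simulated windows and summits. The members, the 37 gene lists and the 20 listed sequences were chosen with earlier results of these data known, and the paired letters after their values were seen. Genes are named by a written rule: nearest genes of the 40 strongest members, up to 4 genes a list, extremes, limits, loci with 3 or more summits, and windows printed. *CG4364*, *lncRNA:CR42794*, *scyl* and later-ranked list genes were named after their values were seen. All samples are 1 group.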

Additional observations from a re-analysis of the deposited data

How the results depend on the processing

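Ranking by one replicate alone (without replicate 1 or without replicate 2) gave promoter shares of 70.2% to 72.0%, upstream shares of 80.8% to 82.0%, divergent shares of 31.4% to 31.9%, X shares of 18.3% to 19.8% and 3.0% to 3.11% of protein-coding genes. The pair was then in 44.0% to 46.0% of the 50 strongest, 2.92% to 3.21% of the members below rank 50 and 0.339% to 0.396% of the other peaks. The share of promoters was 77.2% for the strongest 5.01% of thresholded peaks, and 53.9% and 81.7% with windows of 200 and 1000 bp. With 200 bp the other thresholded peaks had 52.1%, so the members' excess was not seen. Divergent promoters made up 20.8% and 40.2% with those windows. Genes with a member summit were 1.74% for the strongest 5.01%, 5.67% for the strongest 20%, and 2.45% and 3.84% with distances of 500 and 2000 bp, as the construction of these alternatives implies. The pair was in 29.0% of the 100 strongest, and within 25 bp in 0.141% of the other thresholded peaks. These alternatives on the pair were chosen after seeing the data. The shares of sequences in members followed the width searched. Within 25 and 100 bp of the summit, GAGAG was in 5.34% and 24.4% of members (8.91% within 50 bp), TATAAA in 6.87% and 26.7% (14.8%) and ATCGAT in 4.07% and 13.7% (9.92%). In the strongest 5.01% of thresholded peaks ATCGAT was also in 13.7%. Of 73 alternatives over 12 results, 55 stayed within the main value's 95% interval (for rho, within 0.05). No paired analysis was possible because the samples form 1 group. Depth is unknown, so counting error within a peak could not be given.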
